A study of Mus musculus with 42 samples.

Results

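The cytochrome P450 genes described here are the 29 P450 genes, of 17989 genes measured, that remained once 17 P450 genes of fatty acid, bile acid, sterol and selected drug metabolism had been set aside. The members were chosen by name and by mean signal, and the genes set aside were picked with results of these diet groups known. A gene was taken if a probe set carried its symbol alone, if the symbol was Cyp followed by a number, a letter and a number, and if its mean log2 signal over all 42 arrays was above 4. The level chose the members and is given only as a description: of the 61 genes whose symbols fitted, 32 lay at or below it, with means from 2.14 to 3.90. Just below the threshold stood Cyp2c38 at 3.90 and Cyp2d34 at 3.59, and just above it Cyp26b1 at 4.09 and Cyp2j9 at 4.20. As a gauge of background, the 95th percentile over 929 olfactory receptor genes was 2.86. The 29 genes fell into 17 subfamilies, and the largest were Cyp2d with 6 members, Cyp2c with 4 and Cyp4f with 3. RefSeq lists 28 of them as protein coding and Cyp2d13 as a transcribed pseudogene.

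The samples were livers of male wild-type C3HeB/FeJ mice, an inbred strain, housed singly and random fed. RNA was hybridised to Affymetrix whole-transcript arrays. The control group held 18 arrays, made from animals of 15 to 17 weeks that ate low-fat food. A high-fat diet (HFD) was given for 7 days to mice of 15 weeks, for 14 days to mice of 16 weeks and for 21 days to mice of 17 weeks, with 8 arrays in each group. The genotype label is the same in every group, and no transgene or deletion is named. The labels number the arrays without naming the animals, so whether each array is a separate animal is not stated. The p-values below set differences of group means against the spread between arrays within groups, and some of that spread may be technical. In the titles, the arrays of the control and 21-day groups carry the added word reanalysis and those of the 7-day and 14-day groups do not, so at 7 and 14 days the diet and whatever this word stands for cannot be told apart.

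Cytochromes P450 are haem enzymes, most of them anchored in the endoplasmic reticulum, that use electrons from P450 reductase to insert oxygen into their substrates. The liver holds many of them: the families with low numbers oxidise drugs, pollutants, steroids and polyunsaturated fatty acids, and others handle retinoic acid, vitamin D and oxysterols. Nuclear receptors that sense foreign compounds and lipids, together with the sex-dependent pattern of growth hormone, set the level of many of the genes in rodents.

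Cyp2d40, Cyp2c67 and Cyp2c68 were the members that passed the test over all 4 groups, and the 250 bases before their starts are shown because the Cyp2c pair, which are neighbours in the RefSeq gene order, share most of theirs. The sequences are RefSeq's (GRCm38.p6), all from the minus strand of the chromosome and written 5′ to 3′ towards the gene. They lie at chr19:39649043-39649292 for Cyp2c67, at chr19:39741102-39741351 for Cyp2c68 and at chr15:82764123-82764372 for Cyp2d40. Capitals mark CAAAGTCCA, the letters of a site of the liver receptor HNF4.
Cyp2c67: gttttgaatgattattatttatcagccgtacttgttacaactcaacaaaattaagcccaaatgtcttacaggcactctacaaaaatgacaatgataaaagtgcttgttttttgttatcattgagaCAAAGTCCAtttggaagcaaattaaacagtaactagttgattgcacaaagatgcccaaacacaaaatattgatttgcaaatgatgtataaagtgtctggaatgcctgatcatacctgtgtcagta
Cyp2c68: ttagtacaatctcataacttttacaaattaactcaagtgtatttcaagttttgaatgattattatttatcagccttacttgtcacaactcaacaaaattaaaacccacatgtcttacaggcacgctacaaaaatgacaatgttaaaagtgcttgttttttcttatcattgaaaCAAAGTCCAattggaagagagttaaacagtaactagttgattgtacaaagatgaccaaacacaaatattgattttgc
Cyp2d40: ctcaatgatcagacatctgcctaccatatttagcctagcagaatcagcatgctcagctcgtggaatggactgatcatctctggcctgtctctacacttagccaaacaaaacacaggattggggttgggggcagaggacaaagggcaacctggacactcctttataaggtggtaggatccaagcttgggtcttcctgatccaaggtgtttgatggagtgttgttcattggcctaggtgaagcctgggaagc

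In a local alignment the Cyp2c67 and Cyp2c68 windows matched over 201 columns, of which 185 were identical (92.0%). CAAAGTCCA lay 125 to 117 bases before the start of Cyp2c67 and 77 to 69 bases before that of Cyp2c68, in the sense direction in both. A window was found for 24 of the 29 members. On either strand CAAAGTCCA was in 2 of these 24, the related pair, and in 0.381% of 27025 windows of the same length. The nuclear receptor half-site letters AGGTCA were in 3 of the 24 (Cyp2c39, Cyp2f2 and Cyp3a25) and in 13.8% of all windows, and TTCNNNGAA, the letters of a STAT site, were in 2 of the 24 (Cyp4b1 and Cyp4f13) and in 7.18% of all windows. These motifs do not overlap one another in the windows shown, and the Cyp2d40 window held none of them. A match is a description of the letters and no evidence of binding.

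Against the controls, 1 of the 29 genes was called at each HFD time. The rule can lower this count, since genes were set aside with results known, and a missed threshold does not show an unchanged gene. At an unadjusted p under 0.05 there were 7, 9 and 9 of the 29, beside 9.28%, 6.0% and 6.66% of all genes. At 7 days Cyp2d40 rose and no member fell at a limma adjusted p under 0.05, that is 1 of 29 members beside 1.40% of all genes called (1.16% higher and 0.239% lower). At 14 days the rise of Cyp2d40 was again the single call, beside 0.667% of all genes (0.506% higher and 0.161% lower). At 21 days Cyp2c68 fell and no member rose, beside 0.700% of all genes (0.445% higher and 0.256% lower). With 29 members, 1 call is 3.45%, and a single gene more or fewer would change that share widely. These counts of calls thus cannot decide whether the members differ from all genes. All genes also include many at background, whereas the members had to exceed the level threshold, so the shares are not of like genes. The median member change was -0.04, -0.03 and -0.03 on the log2 scale at 7, 14 and 21 days, beside -0.01, 0.00 and 0.01 for all genes. The 3 comparisons share the same 18 control arrays and are not independent of each other.

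**Figure D1:**
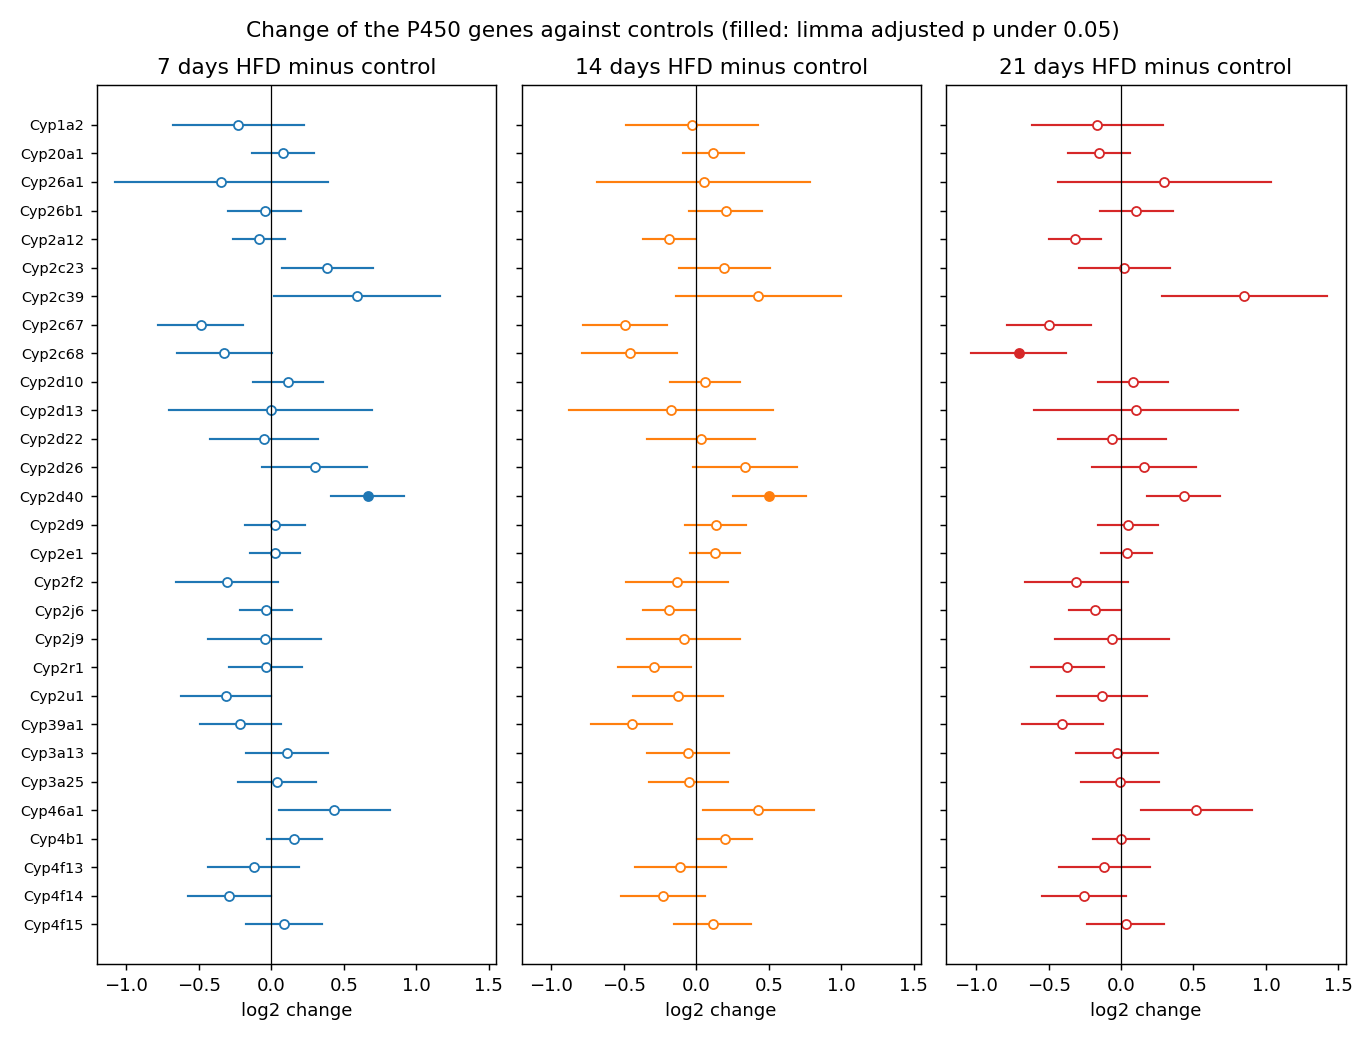
Log2 change of each of the 29 genes (HFD mean minus control mean, horizontal axis) at 7, 14 and 21 days, with 95% limits from limma; a filled point has an adjusted p under 0.05. Filled points stand for Cyp2d40 at 7 and 14 days and Cyp2c68 at 21 days, and the widest limits are those of Cyp26a1 and Cyp2d13.

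Cyp2d40, a member of the Cyp2d subfamily to which the human drug oxidase CYP2D6 belongs, was higher at each HFD time. In the controls its log2 signal ran from 5.75 to 7.31 with a median of 6.69. The 7-day arrays ran from 7.06 to 7.67 with a median of 7.33. The 14-day arrays lay between 6.76 and 7.58 (median 7.19). The 21-day arrays lay between 6.91 and 7.72 (median 7.04). All 8 arrays of each HFD group lay above the control mean, but each HFD group overlapped the controls: 4, 3 and 1 arrays at 7, 14 and 21 days lay above every control. The group means were 6.68 ± 0.36 (SD, n = 18) in the controls and 7.34 ± 0.22, 7.18 ± 0.28 and 7.11 ± 0.26 (SD, n = 8 each) at 7, 14 and 21 days. The change at 7 days was 0.66 on the log2 scale (SE 0.12, 95% limits 0.41 to 0.92), a 1.58-fold rise with a limma adjusted p of 0.000653. At 14 days it was 0.51 (1.42-fold, limma adjusted p = 0.0375), and at 21 days 0.43 (limma adjusted p = 0.125), which did not pass. The titles at 7 and 14 days lack the word reanalysis that the control titles carry, so both called rises cannot be told apart from what it stands for. In bulk liver, more of a transcript per cell and more cells that hold it cannot be told apart, here and in all results that follow.

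The 7-day rise of Cyp2d40 passed without any single array, with changes from 0.61 to 0.70. It passed in 13 of 14 other settings and not with the HFD arrays numbered 5 to 8 alone, where it was 0.49 (adjusted p = 0.235, against 2.53e-05 at the lowest). The 14-day rise was lost without any one of 11 arrays (control arrays 1, 2, 5, 12 and 18 and 14-day arrays 1, 2, 3, 4, 5 and 7), with changes from 0.45 to 0.57 and adjusted p-values up to 0.165. It passed in 8 of 14 other settings, with adjusted p-values from 0.00237 to 0.783, and the 6 that ended the call included quantile normalization (0.0524), the compared groups alone (0.0841), the HFD arrays numbered 5 to 8 alone (0.783) and the control arrays numbered 1 to 9 (0.0704) or 10 to 18 alone (0.136).

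The other 5 Cyp2d genes did not pass at any time. Their changes lay between -0.05 and 0.30 at 7 days, between -0.17 and 0.34 at 14 days, and between -0.06 and 0.16 at 21 days. Cyp2d26 had the largest of these, 0.34 at 14 days (95% limits -0.02 to 0.70). Cyp2d9, a testosterone hydroxylase that is higher in male than in female mouse liver, ran from 9.52 to 10.40 in the controls (median 9.99), and its HFD medians of 10.07, 10.10 and 10.01 lay inside that range. Its changes were 0.03, 0.13 and 0.05. Cyp2d10 changed by 0.12, 0.06 and 0.08. Cyp2d40 thus was the Cyp2d gene past the threshold, but whether its change differs from those of its relatives was not tested.

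Cyp2c68 had lower values at each HFD time and passed at 21 days. Its control arrays ran from 7.12 to 8.59 with a median of 7.58. The 7-day arrays ran from 6.85 to 7.97 (median 7.40), the 14-day arrays from 6.88 to 7.71 (median 7.26) and the 21-day arrays from 6.36 to 7.63 (median 6.94). At 21 days 6 of 8 arrays were below every control and 8 of 8 below the control mean, and the remaining 2 overlapped the controls. The mean was 7.69 ± 0.42 (SD, n = 18) in the controls and 6.98 ± 0.44 (SD, n = 8) at 21 days. Cyp2c68 fell by 0.70 on the log2 scale at 21 days (SE 0.16, limits -1.03 to -0.38), which is 1.63-fold lower, with a limma adjusted p of 0.0169. The earlier changes were -0.32 (adjusted p = 0.547) and -0.46 (adjusted p = 0.423). The difference between 21 and 7 days was -0.38 (95% limits -0.77 to 0.01), with a limma adjusted p of 0.697. A difference between these groups, which also differ in age and in the word reanalysis, was thus not detected.

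The 21-day fall of Cyp2c68 passed in 11 of 14 other settings and was lost without 21-day array 3 or 4, with changes from -0.80 to -0.62 over all single arrays and adjusted p-values up to 0.074. It was also lost with the control arrays numbered 1 to 9 alone (adjusted p = 0.0647), with those numbered 10 to 18 alone (adjusted p = 0.101) and with the HFD arrays numbered 5 to 8 alone (-0.39, adjusted p = 0.340).

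Cyp2c67, the neighbour of Cyp2c68, had nearly the same difference at each time. Its control arrays ran from 9.80 to 11.47 with a median of 10.62. The medians at 7, 14 and 21 days were 9.92, 10.04 and 9.91, and the highest arrays were 10.75, 10.38 and 10.77. Most HFD arrays were below the control mean, 7, 8 and 6 of 8, yet 2, 1 and 2 were below every control, so that the groups overlapped. The changes were -0.49 (adjusted p = 0.0829), -0.49 (adjusted p = 0.144) and -0.50 (adjusted p = 0.131), and none passed. With quantile normalization, array weights or Malat1 as a covariate the 7-day change did pass (adjusted p = 0.0177, 0.0106 and 0.0324). Probe sets of close relatives can hybridise to each other's transcripts, so the values of this pair may not be separate measurements.

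**Figure D2:**
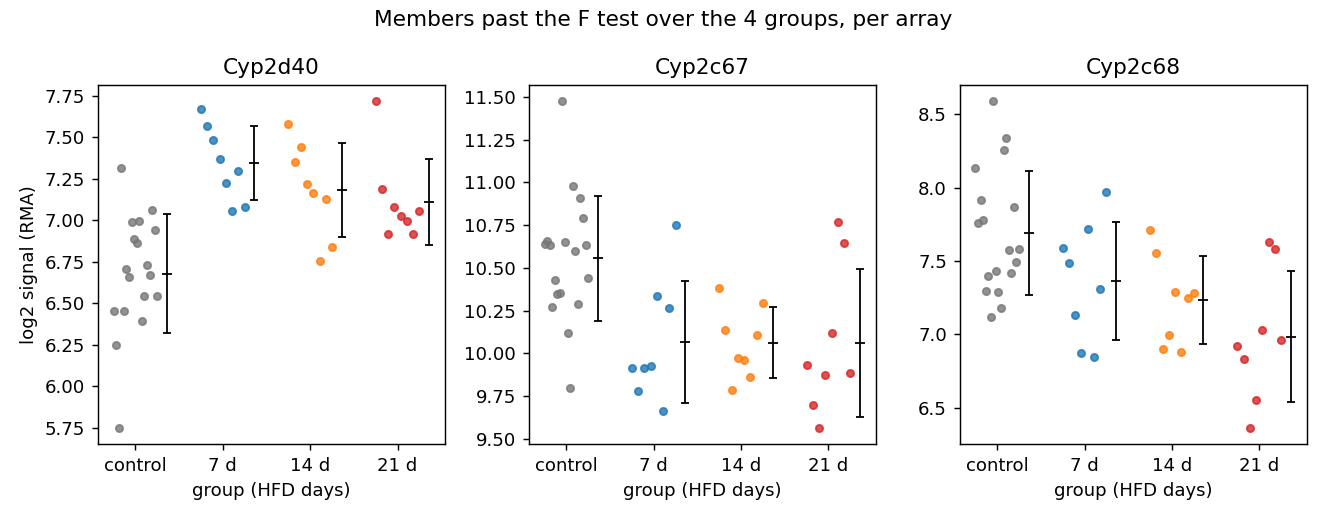
Log2 signal of Cyp2d40, Cyp2c67 and Cyp2c68 on each array (points, vertical axis) by group (horizontal axis: 18 control arrays and 8 arrays at each HFD time), with the group mean and SD beside them as a bar. All HFD arrays of Cyp2d40 stand above the control mean of 6.68, and 6 of 8 arrays of Cyp2c68 at 21 days stand below every control.

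The other Cyp2c members had changes of the opposite sign. Cyp2c39, a retinoic acid hydroxylase, had the largest change among the 29 genes at 21 days and did not pass. Its controls ran widely, from 4.53 to 7.61 (median 5.93), and its 21-day arrays from 6.03 to 7.66 (median 7.06), with 7 of 8 above the control mean and 1 above every control. The change was 0.85 at 21 days (limits 0.28 to 1.42, adjusted p = 0.291), after 0.59 and 0.43. Cyp2c23, an arachidonic acid epoxygenase, changed by 0.39, 0.19 and 0.02, and 3 of 8 arrays at 7 days were above every control. That 7-day change passed with array weights (0.47, adjusted p = 0.0368).

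The F test over the 4 groups called 3 of 29 members, beside 1.30% of all genes: Cyp2d40 (limma adjusted p = 0.0011), Cyp2c67 (0.0400) and Cyp2c68 (0.0447). The Cyp2c calls were close to the threshold and passed in 8 (Cyp2c67) and 7 (Cyp2c68) of 13 other settings, with adjusted p-values up to 0.595 and 0.430. With median centring they were 0.0672 and 0.0561. Leaving out single arrays left between 1 and 3 members called, and each of the Cyp2c genes was lost without any one of 26 of the 42 arrays. Both were lost without any one of 20 arrays: control arrays 1, 2, 3, 8, 12, 13 and 16, 7-day arrays 1, 2 and 3, 14-day arrays 3, 4, 5, 6 and 7, and 21-day arrays 1, 2, 3, 4 and 8.

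Between HFD times no member passed. These groups also differ in age, and of the HFD titles only those at 21 days carry the word reanalysis. Diet time therefore cannot be told apart from age, nor at 21 days from what that word stands for. At 14 against 7 days 0 members passed and 0 had an unadjusted p under 0.05, beside 0.00% of all genes called by limma. At 21 against 7 days 0 passed and 2 had an unadjusted p under 0.05, beside 0.00556% of genes. At 21 against 14 days 0 passed and 1 had an unadjusted p under 0.05, beside 0.00% of genes. The F test over the 3 HFD times called 0 members, 0 of them at an unadjusted p under 0.05, beside 0.00556% of genes. Missing the threshold does not show that the times were alike: the 95% limits of the differences were inside 1.5-fold for 24, 22 and 22 of the 29 genes.

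Outside the Cyp2c and Cyp2d subfamilies no member passed against the controls. In all, 13 of the 29 genes had an unadjusted p under 0.05 at 1 time or more (7, 9 and 9 genes at 7, 14 and 21 days, where 9.28%, 6.0% and 6.66% of all genes did). The 95% limits lay inside 1.5-fold in either direction for 17, 20 and 18 of the 29 at the 3 times, and for 15 at all of them. Across all genes, many of them at background with little spread, 95.9%, 96.9% and 97.2% did. The median SE of a member's change was 0.14, beside 0.09 for all genes, so that smaller shifts are harder to see in these genes.

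Among the steroid and xenobiotic oxidases, Cyp2e1, which oxidises ethanol and acetaminophen in perivenous hepatocytes, ran from 12.25 to 12.86 in the controls and had HFD medians of 12.61, 12.66 and 12.64. Its changes were 0.03, 0.13 and 0.04, with 95% limits of -0.15 to 0.20 at 7 days. Every limit lay inside 1.5-fold. Cyp1a2, which oxidises caffeine and aromatic amines, changed by -0.23, -0.03 and -0.16. Its limits were wider, from -0.68 to 0.22 at 7 days. Cyp3a25, a relative of the human drug oxidase CYP3A4, changed by 0.04, -0.05 and -0.01, and Cyp3a13 by 0.11, -0.06 and -0.03.

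Cyp2a12, a bile acid hydroxylase of mouse liver, had a narrow control range, from 8.87 to 9.31 (median 9.08). Its 21-day arrays ran from 8.11 to 9.19 (median 8.90), and 4 of 8 were below every control. The changes were -0.09, -0.19 and -0.31, the last with a limma adjusted p of 0.103. At 21 days the HFD arrays numbered 1 to 4 alone gave -0.62 (adjusted p = 0.000352), and the call also passed with quantile normalization (adjusted p = 0.0451) and with Malat1 as a covariate (adjusted p = 0.0425). Cyp2f2, which oxidises naphthalene and marks periportal hepatocytes, changed by -0.31, -0.13 and -0.31. Its controls ran from 10.71 to 12.12, and 1 of 8 arrays at each time was below them.

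Among the genes of sterols and vitamins, Cyp46a1, a cholesterol hydroxylase best known from neurons, had control values from 6.77 to 8.88 (median 8.08) and HFD medians of 8.49, 8.19 and 8.65. The changes were 0.44, 0.43 and 0.52 (adjusted p = 0.450, 0.723 and 0.434), and 7, 8 and 7 of 8 arrays were above the control mean while 0 were above every control. Cyp39a1, an oxysterol hydroxylase, changed by -0.21, -0.45 and -0.40 (adjusted p = 0.679, 0.227 and 0.337). All 8 of its 14-day arrays were below the control mean, and 4 were below every control. Cyp2r1, the vitamin D hydroxylase of liver, changed by -0.04, -0.29 and -0.37 (adjusted p = 0.946, 0.686 and 0.299). Cyp26a1, which degrades retinoic acid, varied most between control arrays, from 4.01 to 7.88 (SD 0.999, n = 18), and its changes were -0.34, 0.05 and 0.30. Its relative Cyp26b1 changed by -0.05, 0.20 and 0.11.

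The fatty acid and eicosanoid oxidases of the Cyp4f subfamily, some of which inactivate leukotriene B, did not pass. Cyp4f14 changed by -0.29, -0.23 and -0.25, Cyp4f13 by -0.12, -0.11 and -0.11 and Cyp4f15 by 0.09, 0.11 and 0.03. The epoxygenases of the Cyp2j subfamily lay between -0.18 and -0.04 at all times. Cyp2u1, a fatty acid hydroxylase, changed by -0.31, -0.13 and -0.13. Cyp4b1 changed by 0.16, 0.20 and 0.00, and Cyp20a1, an enzyme without a well known substrate, by 0.08, 0.12 and -0.15.

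The 17 P450 genes set aside by the rule had been picked out with their results known, so their counts are a description. Of these, 5 rose and 3 fell at 7 days, 4 rose and 2 fell at 14 days, and 4 rose and 3 fell at 21 days, beside 1.40%, 0.667% and 0.700% of all genes called. The 32 genes below the level threshold gave 0 limma calls against the controls (4, 1 and 2 at an unadjusted p under 0.05). They included Cyp1a1 at a mean of 2.58, Cyp2b13 at 2.27, Cyp3a16 at 2.28 and Cyp17a1 at 3.31. Cyp4a12a and Cyp4a12b, whose symbols end in a letter and so are outside the rule, were also not called, with changes of -0.46 and -0.50 at 21 days (adjusted p = 0.0817 and 0.131).

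Of the electron donors and haem synthesis genes, 14 of 19 were measured and 0 passed the limma test at 7, 14 and 21 days (1, 1 and 2 had an unadjusted p under 0.05), with median changes of 0.03, -0.02 and 0.00. Of 20 measured regulators of P450 genes, Ppara, the receptor for fatty acids that drives the Cyp4a genes, rose by 0.65 at 7 days (limma adjusted p = 0.00265) and by 0.55 at 14 days (limma adjusted p = 0.0360), and 0 others passed. At an unadjusted p under 0.05 there were 3, 2 and 3 of the 20 regulators at 7, 14 and 21 days. Of 13 measured genes of the growth hormone axis, 0 passed with limma (1, 0 and 1 at an unadjusted p under 0.05). Among 21 conjugating and related enzymes, Ugt3a1, a sugar transferase, rose by 0.85, 0.71 and 0.82, and Nat8, an acetyltransferase, fell by 0.53, 0.62 and 0.66. Ephx2, the epoxide hydrolase that acts on P450 products of arachidonic acid, rose by 0.42 at 14 days (limma adjusted p = 0.0450). That is 2, 3 and 2 of the 21 called, beside 1.40%, 0.667% and 0.700% of all genes, and 10, 7 and 8 of the 21 had an unadjusted p under 0.05, beside 9.28%, 6.0% and 6.66% of all genes.

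Of the female-biased P450 genes 5 of 11 were measured: 2 rose at 7 days (Cyp2b9 and Cyp3a44), 1 at 14 days and 1 at 21 days (Cyp2b9), and Cyp39a1, the member among them, did not pass. Of the 5 male-biased P450 genes, Cyp7b1 fell at 7 and 21 days, by 0.93 and 0.82. The members Cyp2d9 and Cyp2u1 did not pass, nor did Cyp4a12a and Cyp4a12b. An unadjusted p under 0.05 was found for 2, 3 and 3 of the 5 female-biased genes and for 2, 1 and 3 of the 5 male-biased ones. Of all genes 9.28%, 6.0% and 6.66% had such a p, and 1.40%, 0.667% and 0.700% were called. Median changes were 0.05, 0.00 and 0.13 for the female-biased and -0.03, -0.20 and -0.46 for the male-biased genes. Among the female-biased genes Cyp2b13 and Cyp3a16 had mean levels of 2.27 and 2.28, below the background gauge of 2.86. The male-biased genes changed at 21 days by 0.05 (Cyp2d9), -0.13 (Cyp2u1), -0.46 (Cyp4a12a), -0.50 (Cyp4a12b) and -0.82 (Cyp7b1). Every gene called in these lists (Cyp2b9, Cyp3a44 and Cyp7b1) is one set aside by the rule.

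The labels name liver, and the arrays carried hepatocyte RNA. The mean log2 signal of 8 measured hepatocyte markers ran from 11.1 to 11.9 over all arrays. With limma 0 of these markers passed (1, 2 and 2 at an unadjusted p under 0.05). Of 9 measured periportal markers, 1 rose (Hsd17b13, 0.43) and 2 fell (Etnppl and Hal) at 7 days, 2 fell at 14 days (Arg1 and Etnppl) and 3 fell at 21 days (Arg1, Cdh1 and Etnppl). Etnppl fell by 1.52 at 21 days. At an unadjusted p under 0.05 there were 7 of the 9 at each time, beside 9.28%, 6.0% and 6.66% of all genes, of which 1.40%, 0.667% and 0.700% were called. Their median change was -0.22, -0.33 and -0.36, and the range of their mean over the list was 8.24 to 8.70 in controls and 7.79 to 8.49 at 21 days. Of 11 perivenous markers 0 passed with limma (2, 1 and 2 at an unadjusted p under 0.05). Of 10 Kupffer cell and macrophage markers 3 rose at 7 days (C1qc, Cd68 and Vsig4) and 0 at 14 and 21 days with limma (7, 3 and 0 at an unadjusted p under 0.05 at the 3 times), and the mean over the list was 4.97 to 5.68 in controls and 5.51 to 5.95 at 7 days. Markers of stellate, endothelial, bile duct, fat, adrenal and kidney cells gave 0 limma calls, with at most 1 gene of a list at an unadjusted p under 0.05 at a given time. Of 4 intestinal markers Fabp2 rose at each time, by 1.63, 1.26 and 1.02. It was the only 1 of the 4 with an unadjusted p under 0.05 at any of these times. The median change of the list was 0.05, 0.06 and 0.02, and 1 of its markers lay at background. Pancreatic acinar markers varied widely between arrays, with means over 11 genes from 3.41 to 8.59 in controls, 3.59 to 9.48 at 7 days, 3.50 to 9.33 at 14 days and 3.43 to 6.56 at 21 days, and 0 passed with limma (0 at an unadjusted p under 0.05). The part of periportal, macrophage and intestinal RNA in the P450 changes was not tested, and the calls of Cyp2d40 and Cyp2c68 were the same with the acinar level as a covariate.

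The signal of Malat1, a long RNA kept in the nucleus, also differed between arrays of every group, and several members varied with it. It was the only nuclear RNA examined. Malat1 ran from 5.76 to 7.41 on the 12 HFD arrays numbered 1 to 4 and from 8.61 to 9.57 on the 12 numbered 5 to 8, with no overlap. On the HFD arrays Malat1 and whatever these numbers stand for thus cannot be told apart. Cyp2d13, the pseudogene, ran from 6.98 to 8.57 on the former and from 8.92 to 9.89 on the latter. Cyp2j9, from the epoxygenase subfamily, ran from 3.39 to 4.08 and from 4.20 to 4.93. Cyp3a25 ran from 10.86 to 11.40 and from 11.45 to 12.07. These ranges did not overlap either. Cyp1a2 differed the other way, with means of 10.07 and 9.43. In all, 5 of the 29 members and 4.25% of all genes differed by more than 0.5 between these sets of arrays, which is given as a description with no test.

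**Figure D3:**
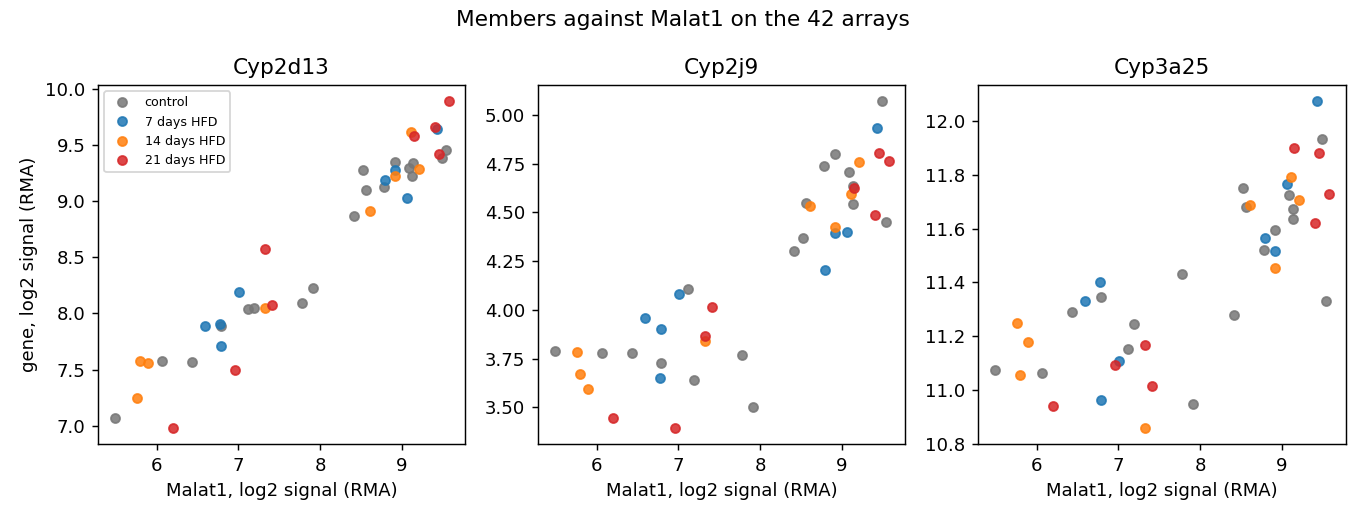
Log2 signal of Cyp2d13, Cyp2j9 and Cyp3a25 (vertical axes) against that of Malat1 (horizontal axis) on the 42 arrays, each point an array coloured by group. In each group the arrays with more Malat1 have more Cyp2d13, which spans 6.98 to 9.89 on the HFD arrays.

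A slope on Malat1 within groups was fitted for 17977 genes with limma, a test chosen after seeing these levels. Over all 42 arrays 11 of the 29 members passed, beside 31.8% of genes, with 5 positive slopes and 6 negative ones. Cyp2d13 had the steepest slope of the members, 0.64 log2 units per log2 unit of Malat1 (SE 0.03, limma adjusted p = 3.348e-23), and ranked 5 among all genes. Cyp2j9 followed with 0.32, Cyp3a25 with 0.20, Cyp2c67 with 0.13 and Cyp3a13 with 0.10. Cyp1a2 had -0.24, Cyp2d26 and Cyp4f13 each -0.18, and Cyp2d40, Cyp26b1 and Cyp2f2 each -0.13. In the 18 control arrays alone, where diet does not differ, 6 members passed beside 7.85% of genes: Cyp2d13 (0.62), Cyp2j9 (0.31), Cyp3a25 (0.16), Cyp1a2 (-0.26), Cyp2d26 (-0.22) and Cyp4f13 (-0.19). In the 24 HFD arrays alone 7 members passed beside 20.2% of genes, with Cyp2d13 at 0.66.

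**Figure D4:**
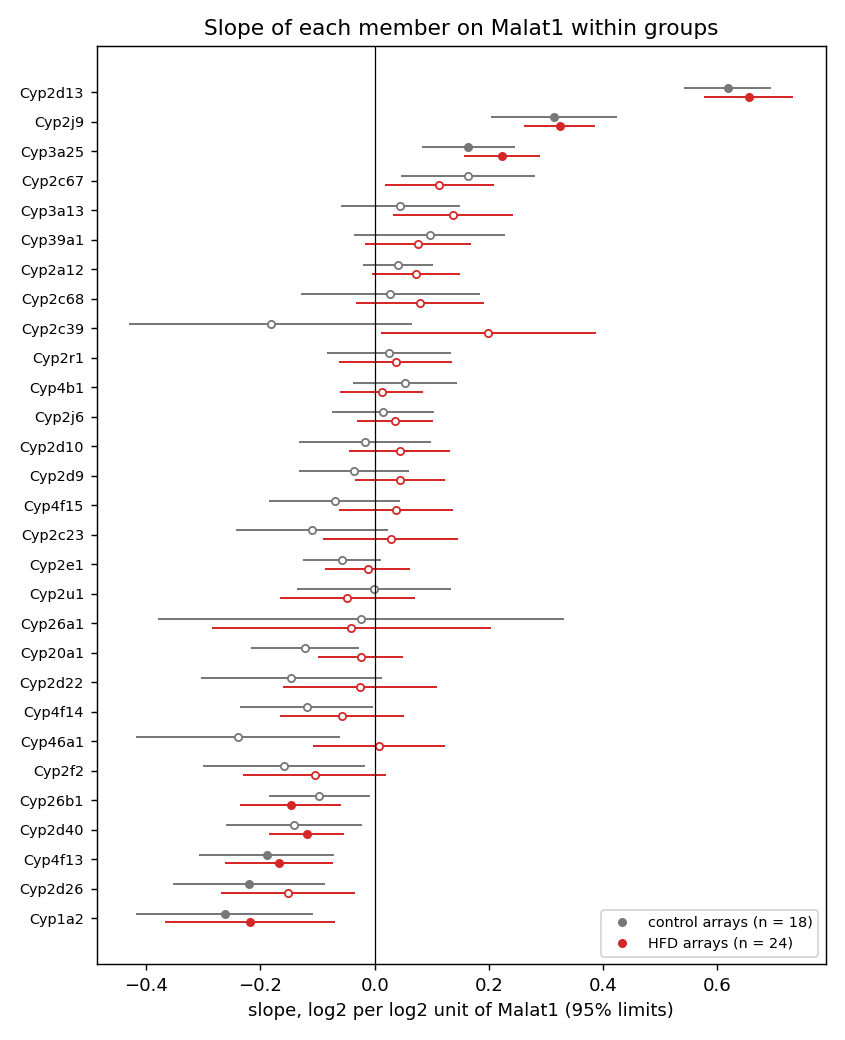
Slope of each of the 29 genes on Malat1 within groups (horizontal axis, log2 per log2 unit, with 95% limits), fitted on the 18 control arrays and on the 24 HFD arrays; a filled point has a limma adjusted p under 0.05. Cyp2d13, Cyp2j9 and Cyp3a25 have positive slopes and Cyp1a2 and Cyp4f13 negative ones in both sets.

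Malat1 itself differed from the controls by -0.10, -0.44 and 0.16 at 7, 14 and 21 days, and none of these passed. With Malat1 as a covariate the calls of Cyp2d40 at 7 and 14 days and of Cyp2c68 at 21 days were kept. At 21 days that fit also called Cyp2d40 (0.45, adjusted p = 0.0153), Cyp2c67 (-0.52, adjusted p = 0.0248) and Cyp2a12 (-0.32, adjusted p = 0.0425), so 4 members passed there. Of all genes it called 156 at 21 days, against 126 without the covariate. Cyp2d13, whose spread between arrays was among the widest, had HFD changes of 0.00, -0.17 and 0.10 with limits from -0.71 to 0.70 at 7 days.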

How the data were processed

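Liver RNA was measured in the 42 samples described above. Per the labels' protocols it was extracted with a miRNeasy kit and DNase and labelled by the Affymetrix whole-transcript assay. The deposited values are log2 signals that the authors made with RMA in Affymetrix Expression Console 1.1, per the submitters' processing notes. The genome build of the annotation was not given in the sources used here. Arrays carry no read depth, so their number limits the precision.

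Of 32624 probe sets, 19559 carried 1 symbol, 1469 several and 11596 none. A gene with several probe sets (841 genes) took the brightest, and each member had 1. Levels of different probe sets were not compared. All 17989 genes entered 1 fit of 4 groups in limma 3.58.1 (R 4.3.3, lmFit and eBayes, 2-sided), with Benjamini-Hochberg adjustment over all genes and a threshold of 0.05. No filter or further scaling was applied, and array medians ran from 3.08 to 3.28. On simulated data for 7 days against control, over 17989 genes, 87 of 100 changes of 0.5 and 98 of 100 of 1 were recovered, with 10 false among 195 called. The changed genes were drawn from all genes, with noise independent between genes. The median SE was 0.09 for all genes and 0.14 for the members, so these shares do not carry over to the members. One probe set with values on control arrays 1 to 9 alone was left out.

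Named were all called members, the brightest of each subfamily and a panel; genes of the lists were named where called, and others as the extreme of a stated range, for a stated count or beside a test. Cyp2c39, Cyp2c23, Cyp2j9 and Cyp2d13 were singled out after their values were seen. The members and lists were chosen with earlier results of these data known. The panel genes Cyp2a4, Cyp2a5, Cyp2b10, Cyp2j5 and Cyp4v3 were not analysed here. Alternatives tried were normalization, centring, weights, filters, variance model, probe-set averaging, subsets of arrays, a replicate block and covariates.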

Additional observations from a re-analysis of the deposited data

Results flagged for a closer look

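Among 87 sets of 8 arrays (29 genes at 3 HFD times), 7 had a highest or lowest array far from the others by Dixon's test, and chance gives about 1 in 20. Of these, 5 were on arrays numbered 6. On 14-day array 6 the log2 signal was 12.12 for Cyp2e1 (others 12.57 to 12.92), 6.96 for Cyp2u1 (others 7.44 to 7.84) and 8.02 for Cyp4f14 (others 8.67 to 8.98), and this array was the lowest of its group for 14 of the 29 genes. On 21-day array 6 Cyp2d26 was 9.79 (others 10.62 to 11.27). That array was lowest for 13 of the 29 and highest for 5, and 21-day array 3, without a flagged value, was lowest for 12. At 7 days array 7 was lowest for 10 and array 6 for 8. On 7-day array 6 Cyp26b1 was 3.49 (others 3.87 to 4.16), and on 7-day array 7 Cyp46a1 was 7.53 (others 8.16 to 8.71). On 21-day array 1 Cyp2d40 was 7.72, above the others at 6.91 to 7.19. The cause of these values was not tested. Leaving out any of these arrays kept the 7-day call of Cyp2d40.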

How the results depend on the processing

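No member change reversed its direction after a call in any alternative. Over members and settings 2438 values kept their side of the threshold, 22 lost it and 15 gained it. Most of the 2438 were not called in the main fit, and only values called there could lose a call. Cyp2d40 at 7 and 14 days and Cyp2c68 at 21 days passed in 13, 8 and 11 of 14 other settings. In the F test over the 4 groups Cyp2d40, Cyp2c67 and Cyp2c68 passed in 12, 8 and 7 of 13. At 7 days, where 1 member was called, quantile normalization, the HFD arrays numbered 1 to 4 alone and the Malat1 covariate each gave 2, array weights 3 and the HFD arrays numbered 5 to 8 alone 0. At 14 days, where 1 was called, 0 were with quantile normalization (Cyp2d40 adjusted p = 0.0524), with the compared groups alone (0.0841), with the HFD arrays numbered 5 to 8 alone (0.783) and with the control arrays numbered 1 to 9 (0.0704) or 10 to 18 alone (0.136). At 21 days, where 1 was called, quantile normalization gave 2, the HFD arrays numbered 1 to 4 alone 6, the Malat1 covariate 4, and the control arrays numbered 1 to 9 or 10 to 18 alone each 0; the HFD arrays numbered 5 to 8 alone gave 1, which was Cyp2c39 (1.29) and not Cyp2c68. The F test over the 4 groups, with 3 called, gave 1 with median centring, 1 with either set of control arrays alone and 0 with the HFD arrays numbered 5 to 8 alone; the compared groups alone cannot give it. Calls over all genes moved too. At 7 days there were 251 in the main fit, 219 with quantile normalization, 337 with the Malat1 covariate and 605 with array weights. The HFD arrays numbered 1 to 4 alone gave 250 there, and those numbered 5 to 8 alone 144. At 21 days the main fit gave 126, quantile normalization 158 and the Malat1 covariate 156. The HFD arrays numbered 1 to 4 alone gave 903 there, and those numbered 5 to 8 alone 349. Fewer arrays enter the subsets, yet some gave more calls, and the cause of the shifts was not tested. Leaving out single arrays gave 1 to 2 members at 7 days (2 without control array 11 or 7-day array 8), 0 to 1 at 14 days, 0 to 3 at 21 days (2 without control array 4 or 11, 3 without 21-day array 6 or 7, 0 without 21-day array 3 or 4), 1 to 3 in the F test and 0 to 0 between HFD times and in the F test over them.

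The groups share replicate numbers. Of 24 same-numbered pairs of a control and an HFD array, 5 had a correlation of deviations above 0.1 (range over all 48 pairs -0.37 to 0.52), and of 24 pairs of HFD arrays 17 did, 7 of 8 between 14 and 21 days. Not every pair passed, so no pairing was taken. Each array was set against those of another group with numbers 1 to 8, and its own number correlated best in 10 of 48 cases among HFD groups and in 3 of 48 between controls and HFD. With the replicate number as a block the counts were 1, 0 and 1 at 7, 14 and 21 days (Cyp2d40 at 14 days 0.61, adjusted p = 0.0599), 1 in the F test over the 4 groups (Cyp2c67 and Cyp2c68 were lost, at 0.203 and 0.166) and 0 between times. Control arrays numbered above 8 share no number with an HFD array, so in this fit they add nothing to the comparisons. An effect of the block and the loss of these controls cannot be told apart here.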
